A study of Mus musculus with 8 samples.

Results

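Hemoglobin transcripts and Alas2 were followed across RNA-seq libraries of the mouse hippocampus. The 5 genes were Hba-a1, Hba-a2, Hbb-bs, Hbb-bt and Alas2, 5 of the 46078 rows of the count table, and each was found once under its name. They were chosen by name, and selected on their levels in these same 8 libraries: an earlier analysis of the same libraries had noted them as lower in Cre. Their levels, their correlations and their genotype difference are therefore given as descriptions, without a test. The data were 4 WT libraries and 4 libraries of mice hemizygous for the T29-1 transgene, called Cre here, in which Cre recombinase is driven in forebrain excitatory neurons by the Camk2a promoter. All mice were 9 weeks old and C57BL/6J, and no floxed allele is named for either genotype. Poly(A) RNA was sequenced, to totals of 23358289 to 30882631 counts per library. Whether the animals were perfused to clear blood from the brain, and whether any library pools several animals, is not given in the sources used here.

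Adult mouse hemoglobin is a tetramer of alpha chains, encoded by Hba-a1 and Hba-a2, and beta chains, encoded in C57BL/6J by Hbb-bs and Hbb-bt. Alas2 encodes the erythroid form of 5-aminolevulinate synthase, the first and rate-limiting enzyme of heme synthesis, while most other cells use Alas1. Circulating reticulocytes, the youngest red cells, still carry these transcripts, so whole brain tissue with blood in its vessels yields them. Low expression of hemoglobin genes has also been described in neurons and glia. In bulk tissue, fewer cells of a type and less RNA per cell cannot be told apart.

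The genes lie at 3 loci, given here on GRCm38 with GENCODE M21. Hba-a1 (ENSMUSG00000069919.7) spans chr11:32283511-32284465 and Hba-a2 (ENSMUSG00000069917.7) spans chr11:32296489-32297298, both on the plus strand. Hbb-bs (ENSMUSG00000052305.6) spans chr7:103826534-103828096 and Hbb-bt (ENSMUSG00000073940.3) spans chr7:103812524-103813996, both on the minus strand. Alas2 (ENSMUSG00000025270.13) spans chrX:150547375-150570638 on the plus strand. The globin genes have 3 exons each and overlap no other annotated gene. Alas2 has 11 exons in its main transcript and overlaps Apex2 and Mir3620 on the opposite strand. The library kit keeps strand, but the strand setting of the counting is not given in the sources used here, so reads of that overlap are uncertain.

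The members of each globin pair are close copies, which bears on how far their separate counts can be read. Over 426 coding bases, Hba-a1 and Hba-a2 differed at 1 position, C381T, counted from the A of the start codon with the Hba-a1 base first. Over 441 coding bases, Hbb-bs and Hbb-bt also differed at 1 position, C417T, with the Hbb-bs base first. Of all windows of 150 bases, the read length, 65.7% of those in the Hba-a2 transcript and 48.4% of those in the Hba-a1 transcript occurred unchanged in the other. For the beta pair these shares were 58.7% for Hbb-bs and 50.7% for Hbb-bt. The GENCODE model of Hba-a1 also starts 161 bases before its RefSeq start, and these bases also occur upstream of Hba-a2. How multi-mapping reads were handled is not given in the sources used here, so the division of reads within each pair is uncertain.

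The promoters show what the genes share beyond the tissue they are known for. The 250 bases before each RefSeq start site (GRCm38.p6) are printed 5′ to 3′ in the direction of the gene. They are given for 1 alpha gene, both beta genes and Alas2. Capitals mark GATAA (the core bound by GATA factors), CACCC (bound by KLF factors) and CCAAT, each on either strand, and TATAA on the strand of the gene. The windows are chr11:32283422-32283671 on the plus strand, chr7:103827929-103828178 and chr7:103813924-103814173 on the minus strand, and chrX:150547167-150547416 on the plus strand.
Hba-a1: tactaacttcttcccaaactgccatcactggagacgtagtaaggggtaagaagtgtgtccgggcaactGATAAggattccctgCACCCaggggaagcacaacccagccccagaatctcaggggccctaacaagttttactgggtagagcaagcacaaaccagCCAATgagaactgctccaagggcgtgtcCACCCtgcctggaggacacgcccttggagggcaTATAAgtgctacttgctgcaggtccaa
Hbb-bs: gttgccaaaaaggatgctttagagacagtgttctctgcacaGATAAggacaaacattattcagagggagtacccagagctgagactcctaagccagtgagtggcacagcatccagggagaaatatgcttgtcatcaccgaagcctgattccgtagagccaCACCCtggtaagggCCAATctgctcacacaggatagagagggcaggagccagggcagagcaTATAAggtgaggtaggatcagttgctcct
Hbb-bt: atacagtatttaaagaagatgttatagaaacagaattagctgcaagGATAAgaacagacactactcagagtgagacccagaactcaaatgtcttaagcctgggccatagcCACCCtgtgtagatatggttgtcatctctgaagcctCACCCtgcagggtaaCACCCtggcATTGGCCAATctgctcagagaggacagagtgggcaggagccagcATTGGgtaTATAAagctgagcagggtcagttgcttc
Alas2: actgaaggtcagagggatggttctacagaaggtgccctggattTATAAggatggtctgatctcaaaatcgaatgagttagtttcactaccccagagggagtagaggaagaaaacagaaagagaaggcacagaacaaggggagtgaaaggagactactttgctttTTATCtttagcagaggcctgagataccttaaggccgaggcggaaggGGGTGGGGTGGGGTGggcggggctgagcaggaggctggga

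Each of the 4 globin promoters held all of these motifs, with TATAA beginning 27 to 30 bases before the start. The Hba-a2 window is not shown because it shares an unbroken run of 247 of 250 bases with that of Hba-a1. The beta promoters were less alike, with a longest shared run of 14 bases. In Alas2, GATAA stood on the opposite strand with its first letter 86 bases before the start, CACCC occurred 3 times on the opposite strand in the last 40 bases, and TATAA lay 207 bases before the start. CCAAT did not occur in the Alas2 window. Among 32851 promoter windows of this length, 22.6% held GATAA, 52.0% CACCC, 33.8% CCAAT and 16.0% TATAA, and 0.664% held all of them. These matches describe letters in the windows and say nothing of binding in these samples.

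Hemoglobin transcripts were a very small part of every library. The 4 globin genes together took 0.00284% to 0.00592% of all counts, which is 758 to 1591 reads per library. Scaled to library size as CPM (each count relative to its library total after TMM scaling), the 5 genes summed to 61.9, 34.5, 39.3 and 40.9 CPM in WT replicates 1 to 4. In Cre replicates 1 to 4 they summed to 47.5, 33.6, 36.3 and 29.9 CPM. WT replicate 1 stood highest and Cre replicate 4 lowest, 2.07-fold apart, and the genotypes overlapped. Without WT replicate 1 the spread from highest to lowest was 1.59-fold.

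Hba-a1, the more abundant alpha gene in the counts, was at 23.4, 15.04, 17.5 and 15.4 CPM in WT replicates 1 to 4. In Cre replicates 1 to 4 it was at 18.0, 14.2, 13.7 and 11.5 CPM. WT replicate 1 was above all other libraries, and the other 3 WT libraries lay within the Cre range. These values rest on 306 to 625 reads. Hba-a2 was at 2.99, 1.25, 1.76 and 2.13 CPM in WT and at 2.26, 1.98, 1.55 and 1.16 CPM in Cre, in replicate order. The order of libraries was similar, with WT replicate 1 and Cre replicate 1 at the top and Cre replicate 4 at the bottom, on 31 to 80 reads each.

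Hbb-bs, the more abundant beta gene in the counts, was at 29.8, 15.8, 17.8 and 20.1 CPM in WT and at 24.5, 15.4, 18.5 and 15.1 CPM in Cre. Replicate 1 of each genotype was high, and the other 6 libraries lay between 15.1 and 20.1 CPM. Hbb-bt was at 3.33, 1.21, 1.27 and 2.09 CPM in WT and at 1.40, 0.988, 1.41 and 1.24 CPM in Cre. Here WT replicate 1 and WT replicate 4 were high, and Cre replicate 1 was not. The Hbb-bt values rest on 23 to 89 reads.

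Alas2 was at 2.43, 1.21, 0.848 and 1.17 CPM in WT and at 1.40, 1.07, 1.15 and 0.937 CPM in Cre. WT replicate 1 held 65 Alas2 reads, and the other libraries held 25 to 37. Among those 7 libraries the spread of Alas2 was no larger than counting error gives, with a variance 0.828 times that of Poisson counts. The same ratio over the 7 libraries was 9.16 for Hba-a1 and 15.8 for Hbb-bs, so these genes differed between those libraries by more than counting error. It was 2.72 for Hba-a2 and 2.10 for Hbb-bt, a smaller excess that was not tested.

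**Figure D1:**
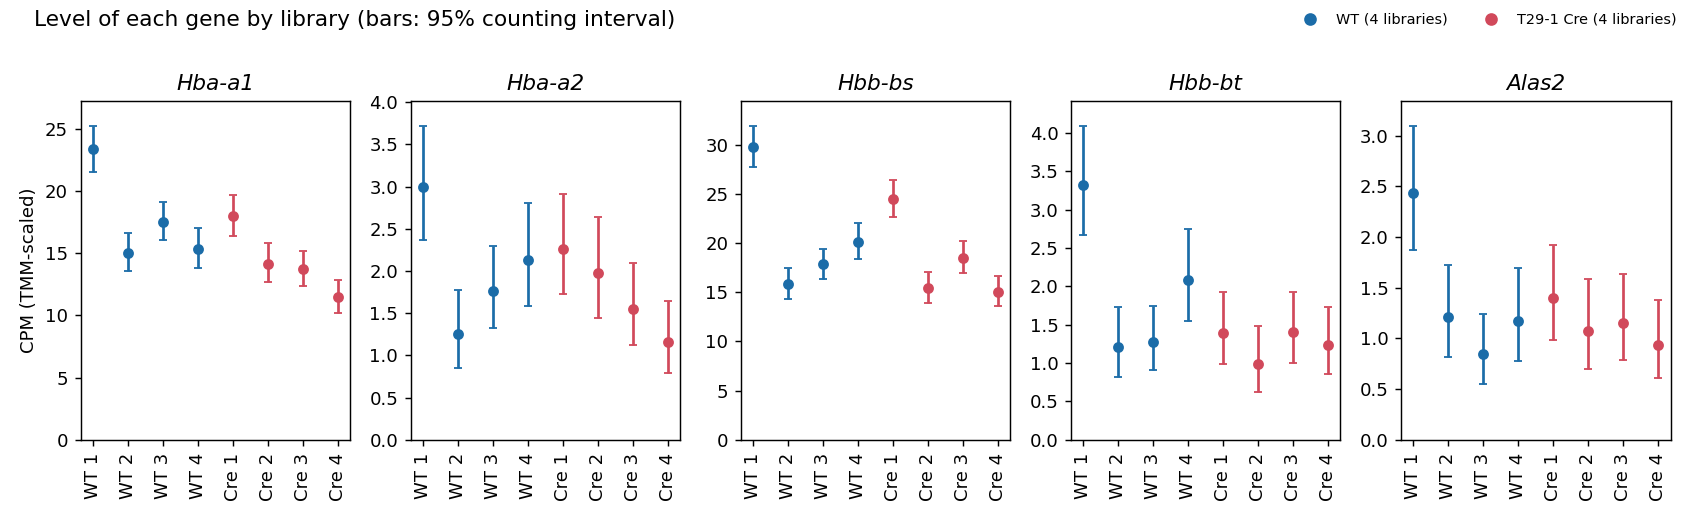
Level of each gene (vertical axis, CPM with TMM scaling, from 0) in each library (horizontal axis), with 95% Poisson intervals that cover counting error only. WT replicate 1 is the highest library for all 5 genes, while the other WT libraries lie among the Cre libraries for Hba-a1, Hba-a2 and Hbb-bs.

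Per length of annotated exons, Hbb-bs and Hba-a1 had the highest levels and Alas2 the lowest. As RPKM (CPM divided by exon length in kilobases), WT levels were 27.2 ± 8.07 for Hbb-bs and 22.0 ± 4.75 for Hba-a1 (SD, n = 4). They were 3.05 ± 1.1 for Hba-a2, 2.81 ± 1.40 for Hbb-bt and 0.588 ± 0.290 for Alas2 (SD, n = 4). The Cre levels followed the same order, at 23.9 ± 5.68, 17.6 ± 3.32, 2.61 ± 0.725, 1.79 ± 0.278 and 0.475 ± 0.0803 RPKM (SD, n = 4). Neighbours within the order, Hbb-bs with Hba-a1 and Hba-a2 with Hbb-bt, lay within each other's spread in WT. Reads that fit both copies of a pair may be missing from these levels.

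WT replicate 1 held more of every one of the 5 genes than the other 7 libraries did. The excess over their pooled rate was 1.55-fold for Hba-a1 (95% Poisson interval 1.42 to 1.69) and 1.64-fold for Hbb-bs (1.51 to 1.77). It was 1.74-fold for Hba-a2 (1.34 to 2.23), 2.43-fold for Hbb-bt (1.889 to 3.111) and 2.20-fold for Alas2 (1.64 to 2.92). These intervals cover counting error only, and the library was singled out because it was high. Whether the excess differed between the genes was not tested. Cre replicate 1 was second for Hba-a1, Hba-a2, Hbb-bs and Alas2, and WT replicate 4 was second for Hbb-bt.

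Against genes of like abundance, the hemoglobin genes varied much between libraries. The SD of log2 CPM over the 8 libraries was 0.31 for Hba-a1 and 0.35 for Hbb-bs, where the median of 3544 genes at 10 to 30 CPM was 0.11. Of those genes, 45 exceeded Hba-a1 and 30 exceeded Hbb-bs. Among 1755 genes at 1 to 3 CPM, whose median SD was 0.26, 31 exceeded Hbb-bt (0.53), 116 exceeded Alas2 (0.44) and 119 exceeded Hba-a2 (0.44). WT replicate 1 enters all of these SDs.

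The balance of alpha to beta counts varied the least between libraries. The other shares varied more than that balance, though less than the amount. Alpha genes made up 44.3%, 48.9%, 50.3% and 44.1% of the globin counts in WT replicates 1 to 4, and 43.9%, 49.6%, 43.4% and 43.7% in Cre replicates 1 to 4. The share was thus near 44% in 5 libraries and near 50% in WT replicates 2 and 3 and Cre replicate 2. The exact 95% binomial interval of WT replicate 3, 47.4% to 53.1%, did not overlap that of WT replicate 1, 41.9% to 46.8%. Between the highest and lowest library the amount varied 2.06-fold and the alpha share 1.16-fold. Taken as the ratio of alpha to beta counts, this balance varied 1.32-fold. The share of Hbb-bt in the beta counts varied 1.86-fold, that of Alas2 in the counts of the 5 genes 1.82-fold and that of Hba-a2 in the alpha counts 1.59-fold.

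Within the alpha counts, Hba-a2 took 7.67% to 12.2% per library, and all 8 intervals overlapped. Within the beta counts, Hbb-bt took 5.39% to 10.05%. The mean was 8.30 ± 1.67% in WT and 6.52 ± 0.992% in Cre (SD, n = 4 each), and the intervals of the lowest library, Cre replicate 1 (3.83% to 7.36%), and the highest, WT replicate 1 (8.14% to 12.2%), did not overlap. Alas2 took 2.16% to 3.93% of the counts of the 5 genes, with 24.5 to 45.3 globin reads per Alas2 read. In the Cre libraries that ratio was 30.3 to 33.0, and their summed level was 29.9 to 47.5 CPM. These Cre ratios rest on 25 to 37 Alas2 reads per library. The exact 95% intervals of their Alas2 shares ran from 2.04% to 4.68%, far wider than the range of the ratios. In the WT libraries the ratio ran from 24.5 in replicate 1 to 45.3 in replicate 3. All 8 intervals of the Alas2 share overlapped.

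**Figure D2:**
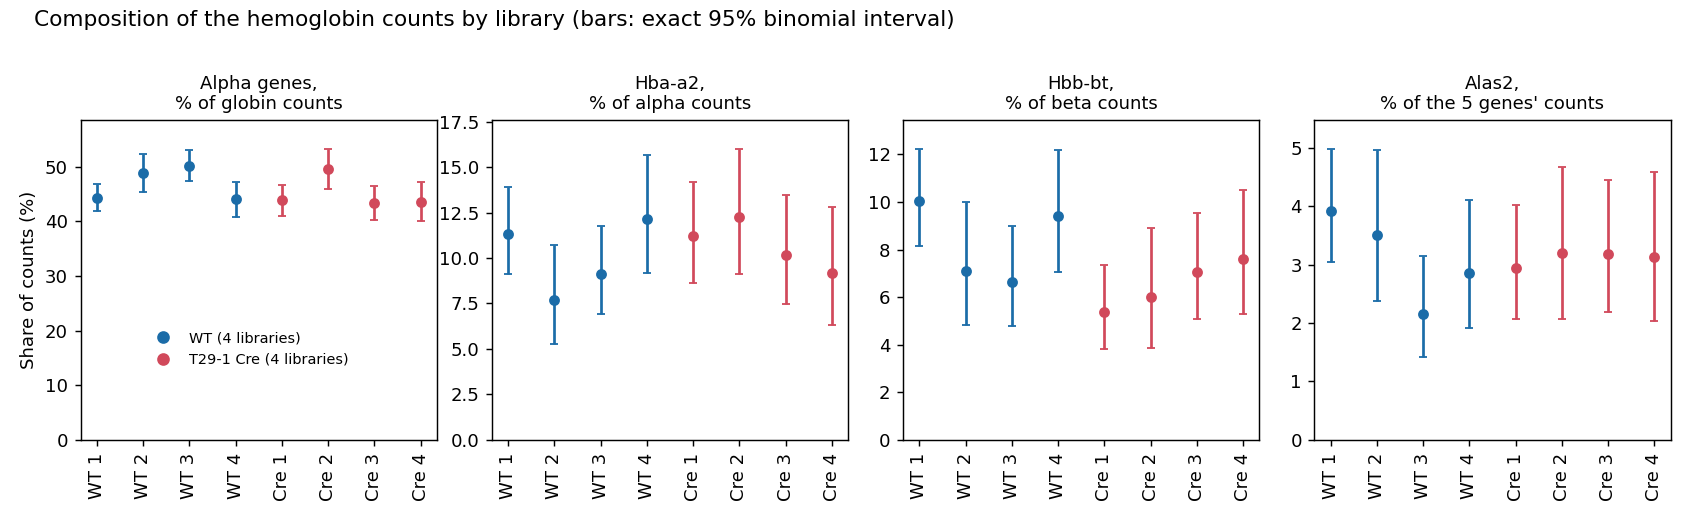
Shares of counts (vertical axes, percent, from 0) in each library (horizontal axis), with exact 95% binomial intervals that cover counting error only. The alpha share is near 44% or near 50%, and Hbb-bt is highest in WT replicates 1 and 4. The Alas2 share of the Cre libraries lies between 2.94% and 3.19%, with intervals from 2.04% to 4.68%.

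The 5 genes rose and fell together between libraries, largely through WT replicate 1. Over the 8 libraries, which share one scaling and include that library, Pearson's r of log2 CPM was between 0.689 and 0.864 for the 10 pairs, with a median of 0.821. Spearman's rho ran from 0.50 to 0.857. The first principal component of the 5 genes held 82.7% of their variance, and its score was 1.82 in WT replicate 1 and -0.867 to 0.366 in the others. With each library expressed as its deviation from its genotype's mean, r ran from 0.587 to 0.889, and these deviations still include WT replicate 1.

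Without WT replicate 1 the correlations fell to a median r of 0.479, from 0.209 for Hba-a1 with Hbb-bt to 0.723 for Hba-a2 with Hbb-bs. Pairs of the 2 abundant genes and Hba-a2 kept the higher values: r was 0.693 for Hba-a1 with Hbb-bs and 0.685 for Hba-a1 with Hba-a2. Pairs with Alas2 fell to 0.292 with Hba-a1, 0.378 with Hba-a2 and 0.277 with Hbb-bt, and to 0.603 with Hbb-bs. Leaving out also Cre replicate 1, the other library far from the median sum, gave a median of 0.326 and a lowest value of -0.08, for Hba-a1 with Alas2. Hbb-bs with Hbb-bt was then at 0.852. Over these 6 libraries r of Alas2 with the 4 globin genes was -0.08 to 0.295. Without WT replicate 1 the spread of Alas2 was no larger than counting error, so these values cannot tell whether a relation was present. Hbb-bs followed the mean of the other 4 genes most closely, with r of 0.941 over 8 libraries and 0.892 without WT replicate 1.

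**Figure D3:**
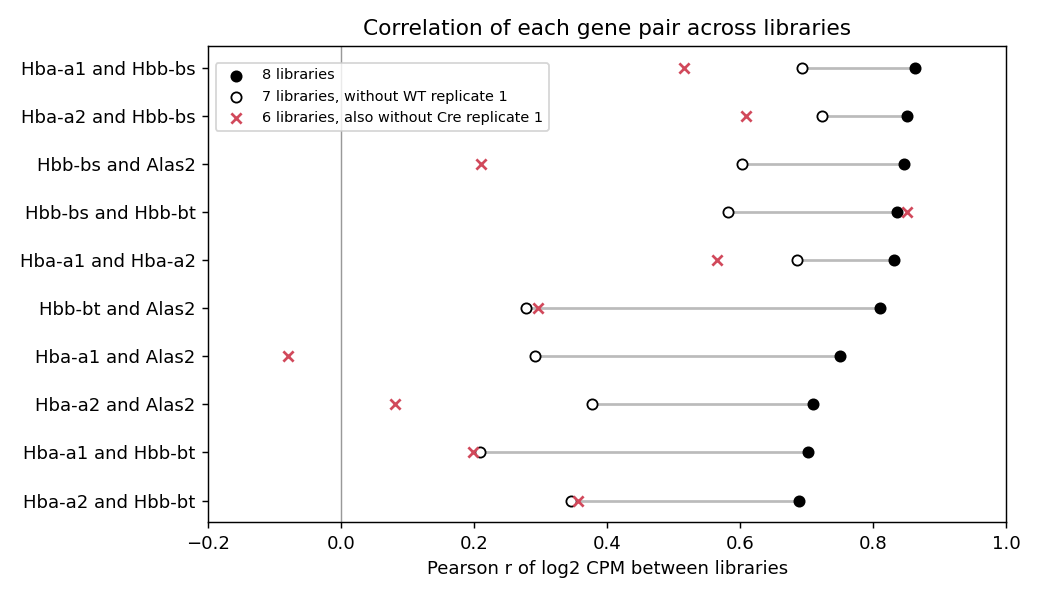
Pearson r of log2 CPM between libraries (horizontal axis) for each of the 10 gene pairs (rows), over 8 libraries, over 7 without WT replicate 1, and over 6 without Cre replicate 1 as well. All 10 values lie between 0.689 and 0.864 over 8 libraries and move left without WT replicate 1, to between 0.209 and 0.723.

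All 5 genes had a lower mean in Cre than in WT, by amounts that depended on WT replicate 1. The comparison asks which transcripts differ in carriers of this Cre line. edgeR's quasi-likelihood test called 1 of 15996 genes tested, St6gal2, which is 0.00625%, and called 0 of these 5. At an unadjusted p under 0.05 there was 1 of the 5 with edgeR, 1 with limma-voom and 2 with DESeq2, and limma-voom and DESeq2 also called 0. Nothing is read from these counts, because the genes were picked from the same comparison. Over all tested genes, 2.43% were at an unadjusted p under 0.05 with edgeR. The genotypes of the 5 overlapped in every case, where 1.81% of tested genes had genotypes that did not. Their median log2 fold change was -0.30, beside 0.00 for all tested genes, of which 50.3% were lower in Cre.

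Among the alpha genes, Hba-a1 was at 17.8 ± 3.86 CPM in WT and 14.3 ± 2.70 in Cre (SD, n = 4 each). Its log2 fold change was -0.32 (SE 0.146, 95% interval -0.63 to -0.0038). Hba-a2 was at 2.03 ± 0.734 and 1.74 ± 0.484 CPM, with a log2 fold change of -0.23 (SE 0.262, interval -0.79 to 0.33). With WT replicate 1 left out, the log2 fold change of Hba-a1 was -0.16 (interval -0.43 to 0.11) and that of Hba-a2 was 0.02 (-0.53 to 0.56).

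Among the beta genes, Hbb-bs was at 20.9 ± 6.19 CPM in WT and 18.4 ± 4.37 in Cre (SD, n = 4 each), and the log2 fold change was -0.18 (SE 0.183, interval -0.58 to 0.21). Hbb-bt had the lowest value of the 5 genes, -0.64 (SE 0.299, interval -1.28 to 0.0042), at 1.97 ± 0.987 and 1.26 ± 0.195 CPM. Without WT replicate 1, Hbb-bs was at 0.04 (interval -0.28 to 0.36) and Hbb-bt at -0.26 (-0.78 to 0.26). Because reads may be split within a pair, the counts of each pair were also summed, a choice made after the data were seen. On the log2 scale the summed alpha genes differed by -0.31 (SE 0.151) and the summed beta genes by -0.22 (SE 0.186).

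Alas2 was at 1.41 ± 0.696 CPM in WT and 1.14 ± 0.193 in Cre (SD, n = 4 each), and the log2 fold change was -0.30 (SE 0.297, interval -0.94 to 0.34). Without WT replicate 1 it was 0.10 (interval -0.41 to 0.61). Hba-a2, Hbb-bs and Alas2 thus changed sign when this library was left out. Leaving out any other single library kept all 5 values below 0.

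**Figure D4:**
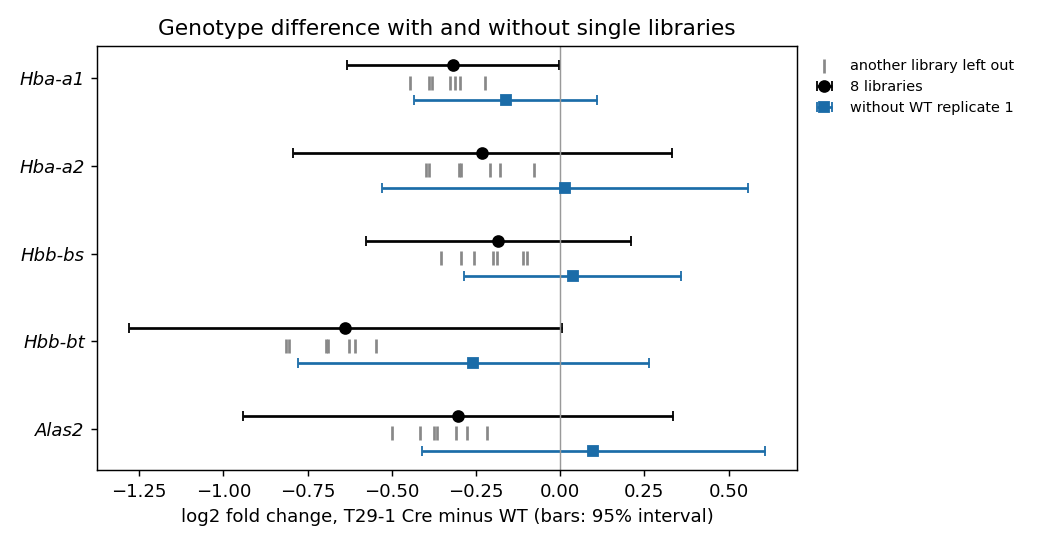
log2 fold change of Cre against WT (horizontal axis) for each gene (rows), with 95% intervals, over all libraries (circles), without WT replicate 1 (squares) and with each other library left out (ticks). Without WT replicate 1 the values of Hba-a2, Hbb-bs and Alas2 move from -0.23, -0.18 and -0.30 to 0.02, 0.04 and 0.10. All 5 intervals include 0 without that library, and over all libraries all but that of Hba-a1 (-0.63 to -0.0038) do too. The intervals are a description, because the genes were picked from the same comparison.

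Other genes of the red cell lineage ranged from 0 counts to far above the hemoglobin genes. Of 22 listed genes other than the 5, 20 were in the table. Of these, 6 were abundant enough to test, and the other 14 held 0 to 29 reads each over the 8 libraries. Among the latter, Rhag, Gata1 and Gfi1b had 0 counts in all libraries. Slc4a1, the anion exchanger of the red cell membrane, held 29 reads over the 8 libraries, and the transcription factor gene Klf1 held 21. Slc4a1 was at 0.224 CPM in WT replicate 1, on 6 reads, within its range of 1 to 7 reads per library. These genes were singled out after their values were seen. The 6 tested genes included Sptb, at 401 ± 11.6 CPM in WT (SD, n = 4), and Ank1, at 69.8 ± 2.70, spectrin and ankyrin genes that neurons also express. Epor, the erythropoietin receptor gene, had a mean of 5.45 CPM over the 8 libraries, and Tal1, a transcription factor gene, 1.68 CPM, also chosen after their values were seen. None of the 6 was called by edgeR (smallest adjusted p = 0.998), none was at an unadjusted p under 0.05, and their median log2 fold change was 0.00.

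Among other globins, the embryonic genes Hbb-y, Hbb-bh1 and Hbb-bh2 had 0 counts and Hba-x had 1. The theta globin genes Hbq1a and Hbq1b held 76 and 81 reads over the 8 libraries. Hbq1a was at 0.673 CPM in WT replicate 1, and its mean over the 8 libraries was 0.356 CPM, on 3 to 18 reads per library. Hbq1b was at 0.411 CPM in WT replicate 1, near its mean of 0.385 CPM, with r of 0.016 to the mean of the 5 genes. Globins made by brain cells did not follow the hemoglobin genes: cytoglobin, Cygb, was at 73.0 ± 5.78 CPM in WT and 72.2 in WT replicate 1, with r of 0.252 to the mean of the 5 genes. Neuroglobin, Ngb, was at 1.97 ± 0.340 CPM in WT and 2.55 ± 0.724 in Cre (SD, n = 4 each, log2 fold change 0.38, edgeR adjusted p = 0.998), with r of -0.36. Myoglobin, Mb, held 27 reads in all. Of the 3 tested globins, Cygb, Ngb and Hbq1b, edgeR called 0, with 0 at an unadjusted p under 0.05.

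Heme synthesis outside red cells was even between libraries. All 8 listed enzymes other than Alas2 were tested and edgeR called 0, with 0 at an unadjusted p under 0.05. Of these, 4 had a higher and 4 a lower value in Cre, and the median log2 fold change was -0.01. Alas1, the enzyme of most tissues, was at 54.6 CPM in both genotypes and at 54.5 CPM in WT replicate 1. Fech, which inserts iron into the ring, was at 55.1 ± 1.05 CPM in WT and Cpox, an earlier enzyme, at 54.1 ± 2.29 (SD, n = 4 each). Summed over the list, WT replicate 1 ranked 7 of 8.

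Genes that clear heme, and those that store iron, were not called either. Of 7 tested clearance genes, 4 were higher and 3 lower in Cre, with a median of 0.02 and 0 called or at an unadjusted p under 0.05. Lrp1, a receptor that takes up heme bound to hemopexin, was at 670 ± 33.9 CPM in WT and Slc48a1, a heme transporter, at 107 ± 8.11 (SD, n = 4 each). Hp, which encodes the plasma protein haptoglobin, held 7 reads in all. The ferritin genes Fth1 and Ftl1 had log2 fold changes of -0.12 (SE 0.0568) and -0.09 (SE 0.0632), and 1 of the 4 tested iron genes was at an unadjusted p under 0.05 with 0 called (edgeR).

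Markers of white cells and platelets were low, and the platelet and lymphocyte sums, mostly Gp1bb and Ighm, moved with the hemoglobin sum between libraries. The log2 platelet sum had r of 0.623 and rho of 0.762 with that of the 5 genes, and r was 0.574 without WT replicate 1 and 0.734 without Cre replicate 1 as well. The platelet r over 8 libraries was the highest of the 18 lists, barely above that of endothelial cells (0.620). Without WT replicate 1, meningeal fibroblasts (0.931), lymphocytes (0.786) and endothelial cells (0.611) had a higher r than platelets. For lymphocytes r was 0.594 and rho 0.714, with r of 0.786 and 0.743 in the same reduced sets, while neutrophils had r of -0.50 and monocytes 0.0759. WT replicate 1 ranked 2 of 8 for platelets, 6 for neutrophils, 4 for lymphocytes and 7 for monocytes, and Cre replicate 1, second in hemoglobin, was highest for lymphocytes (9.78 CPM) and monocytes (0.83 CPM). Their part in the hemoglobin result was not tested. S100a8, Ngp, Mmp8, Elane and Ly6g, of neutrophils, and Cd3g, of T cells, had 0 counts in all libraries. Summed neutrophil markers were at 6.26 to 7.53 CPM in WT and 5.85 to 6.96 in Cre, most of it from Csf3r (5.04 ± 0.310 CPM in WT) and Mmp9 (1.51 ± 0.400). Summed platelet markers ran from 16.3 to 19.5 CPM in WT and 15.4 to 17.0 in Cre, mostly from Gp1bb (11.5 ± 1.23 CPM in WT), while Pf4 and Ppbp held 46 and 12 reads in all. Lymphocyte markers summed to 8.28 to 8.73 CPM in WT and 6.14 to 9.78 in Cre, mostly from Ighm (7.86 ± 0.373 CPM in WT). With the mean log2 CPM of the 5 genes, Gp1bb had r of 0.672 and Ighm 0.583. The other tested platelet genes had r of 0.213 (Itga2b), 0.147 (Itgb3) and -0.38 (Gp5). No lymphocyte gene but Ighm was abundant enough to test, so the sums do not show that the other markers moved alike. Monocyte markers stayed at or below 0.83 CPM, mostly Itgal and Ccr2. Of the 7 of these genes that were tested, edgeR called 0 and 0 were at an unadjusted p under 0.05.

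Cells of the vessel wall were compared next. Summed endothelial markers were at 238 to 296 CPM in WT and 233 to 322 in Cre, with Cre replicate 1 first and WT replicate 1 second, the reverse of their order in the summed hemoglobin genes. The log2 of this sum had r of 0.620 with that of the 5 genes over 8 libraries, 0.611 without WT replicate 1 and 0.126 without Cre replicate 1 as well. The excess of WT replicate 1 over the mean of the others was 1.101-fold here and 1.65-fold for the 5 genes. Flt1 and Slco1a4, the most abundant of the list by their mean over the 8 libraries, were at 47.8 ± 5.67 and 28.99 ± 4.14 CPM in WT (SD, n = 4 each). Mural cell markers, led by Rgs5 and Vtn, ran from 199 to 234 CPM in WT and 208 to 267 in Cre, also with Cre replicate 1 first and WT replicate 1 second. Their part in the hemoglobin result was not tested.

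WT replicate 1 was also the highest library for markers of other cell types. Ependymal markers, of the cells that line the ventricles, summed to 27.1 CPM there and to 12.5 to 19.6 CPM in the other 7 libraries. Foxj1, the transcription factor gene of ciliated cells, was at 9.50 CPM there, and Rarres2 at 4.45 CPM. Oligodendrocyte markers summed to 4523 CPM there and to 3658 to 4014 CPM in the others, with Mbp, a myelin protein gene, the most abundant. None of the 10 ependymal and 10 oligodendrocyte markers was at 0 in all libraries. The choroid plexus sum, mostly Kl, was lowest there, at 24.97 CPM against 25.1 to 55.8, with WT replicate 4 the closest. Kl was at 20.2 CPM and Ttr at 1.084 CPM there. Folr1 (0.374 CPM), Otx2 (0.187) and Sostdc1 (2.43) were above their means over the 8 libraries (0.212, 0.141 and 2.36). The other listed choroid plexus genes were below theirs. Over all 8 libraries the ependymal and oligodendrocyte sums had r of 0.434 and 0.578 with the hemoglobin sum and rho of -0.07 and -0.05. With WT replicate 1 left out, r was -0.73 and -0.46. Their part in the hemoglobin result was not tested. Markers of microglia (Csf1r among them) and of excitatory neurons (Camk2a, Slc17a7) in WT replicate 1 were 1.02 and 1.03 times the mean of the others. The microglia sum nevertheless moved with the hemoglobin sum, with r of 0.555 and rho of 0.714 over 8 libraries. Its r was 0.563 without WT replicate 1 and 0.673 without Cre replicate 1 as well. For excitatory neurons r was 0.0565 over 8 libraries.

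Across the 18 lists, 120 distinct genes were tested and edgeR called 0, with 4 at an unadjusted p under 0.05. That total includes 10 genes of mature red cells that brain cells also make, of which 5 were higher and 5 lower in Cre, with a median log2 fold change of 0.00.

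The genes whose pattern was most like that of the 5 were taken among 14142 other genes averaging 1 CPM or more, by Pearson's r with their mean log2 CPM over the 8 libraries. They were D130020L05Rik (r of 0.965), Wfdc1 (0.953), Ttc38 (0.947), Hopx (0.943), Gpr37l1 (0.942), Cd99l2 (0.930), Fam114a1 (0.928), Smim20 and Phyhipl (0.926 each) and Rcc1 (0.922). The ranking took the extremes of many genes over 8 libraries, and 159 genes had r above 0.8. None of the 10 is a gene of the red cell lists. The SD of their log2 CPM ran from 0.04 to 0.31, against 0.31 to 0.53 for the 5. Hopx, a homeobox gene, had 59.1 CPM in WT replicate 1 and a mean of 45.7 CPM in the others, and Gpr37l1, a receptor gene of astrocytes, had 207 and 182 CPM. At the other end were Gse1 (r of -0.96), Nol4l (-0.95), Gpr173 (-0.95), Rnf145 (-0.94) and Gpr27 (-0.94). The highest r of a listed endothelial gene was that of Vwf, von Willebrand factor, at 0.847, a gene singled out after its values were seen, with 22.5 CPM in WT replicate 1 and a mean of 16.4 CPM over all 8.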

How the data were processed

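Hippocampal poly(A) RNA was read as paired-end reads of 150 bases in 4 WT and 4 Cre libraries, per the labels' protocols. The authors deposited raw read counts per gene name. The submitters' processing notes name STAR 2.6.1d, featureCounts, edgeR 3.11 and the build GRCm38, while annotation, strand setting and handling of multi-mapping reads were not given in the sources used here. A deposited table of the comparison was not used.

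Counts were analysed in R 4.3.3 with edgeR 4.0.16: filterByExpr at its defaults (minimum count 10, minimum total 15), TMM scaling and the quasi-likelihood F test without covariates, with a Benjamini-Hochberg threshold of 0.05. Each SE is the log2 fold change over the root of F. log2 CPM used a prior count of 2, and summed list CPM a pseudocount of 0.1 before log2. Where a name had more than 1 row, the row with the most counts was taken. Alternatives were DESeq2 1.42.0, limma-voom (limma 3.58.1), other scalings, no filter, a replicate block and each library left out. The fit was tested on simulated data.

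The members and all lists were chosen with earlier results of these data known. Named genes were the 5 members, other globins with any count, the called members of each list or else its 2 most abundant, and the 10 genes with the highest and 5 with the lowest r. A few were added after their values were seen, as stated, and a few that the rule names are not reported here. The labels do not say that replicates are separate animals, so a p-value measures only how these samples spread, which may be technical. Libraries of 1 genotype differed by more than counting noise (chi-square 3.34 to 19.4 times its degrees of freedom), so each was counted once. The highest values, 15.0 to 19.4, were those of WT replicate 4 with the other WT libraries. WT pairs without it were at 3.34 to 4.23 and Cre pairs at 3.54 to 7.40. Lengths and positions are from GENCODE M21 and promoters from RefSeq, both GRCm38, with all 5 genes matched by symbol. Intervals on counts cover counting error only, since reads without molecular identifiers are not independent molecules.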

Additional observations from a re-analysis of the deposited data

Results flagged for a closer look

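In each genotype of 4 libraries, 28 measures (the 5 genes, their sum, 4 shares and the 18 list sums) were screened for 1 library far from the other 3. There were 3 among 56 such groups, and chance alone marks about 1 in 20. In Cre replicate 2 the alpha genes made up 49.6% of globin counts, against 43.4% to 43.9% in the other Cre libraries. In Cre replicate 1 the neutrophil markers summed to 5.85 CPM, against 6.88 to 6.96 CPM. In WT replicate 1 the ependymal markers summed to 27.1 CPM, against 12.5 to 13.01 CPM in the other WT libraries. None of the 5 hemoglobin and Alas2 levels was far enough from the others by this measure.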

How the results depend on the processing

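The count of genes called was 1 under DESeq2, limma-voom, 3 other scalings and each library left out (1 to 1), and 0 of the 5 genes were called under any alternative. It was 2, St6gal2 and Ttr, with no filter on low counts and also with the replicate number as a block. The labels give both genotypes replicate numbers 1 to 4, but the deviations of same-numbered libraries correlated at -0.28, 0.30, -0.05 and -0.07 over 5000 genes, so the block is an alternative only. With the block the 5 log2 fold changes ran from -0.59 (Hbb-bt) to -0.17 (Hbb-bs). Without WT replicate 1, Hba-a2, Hbb-bs and Alas2 reversed, and with each library left out in turn they ran from -0.40 to 0.0152, from -0.35 to 0.0371 and from -0.50 to 0.0986. Hba-a1 likewise ran from -0.45 to -0.16 and Hbb-bt from -0.81 to -0.26. The lowest r of the 10 pairs ran from 0.209 to 0.699 with 1 library left out, was 0.50 as Spearman's rho, and was -0.0807 without the 2 libraries farthest from the median, which leaves 6. The cause was not tested. The ratio of highest to lowest summed CPM ran from 1.59 to 2.07 with 1 library left out, the other reduced value being 1.84 without Cre replicate 4. Depth limits Hba-a2, Hbb-bt and Alas2 most, at 23 to 89 reads per library.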

Other observations

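The sum of meningeal fibroblast markers varied with the hemoglobin genes in the libraries other than WT replicate 1, though its most abundant gene, Dcn, followed them little. Their summed level was 171 CPM in Cre replicate 1, 104 CPM in Cre replicate 4 and 106 to 129 CPM in the other 6 libraries, WT replicate 1 among them at 120 CPM. On the log2 scale, r with the summed 5 genes was 0.532 over 8 libraries, 0.931 without WT replicate 1 and 0.865 without Cre replicate 1 as well, as a description of libraries that share a scaling. Dcn and Igf2, the most abundant of this list by their mean over the 8 libraries, were at 48.3 ± 7.67 and 34.1 ± 2.31 CPM in WT (SD, n = 4 each). With the mean log2 CPM of the 5 genes, Dcn had r of 0.008 over 8 libraries and 0.234 without WT replicate 1. Igf2 was at 0.754 without that library, and the other listed genes ran from 0.536 (Lum) to 0.945 (Slc22a6). Of the 9 meningeal genes edgeR called 0 between genotypes, with 0 at an unadjusted p under 0.05. Cre replicate 1, second in hemoglobin, was thus high for endothelial, mural and meningeal markers, and WT replicate 1, first in hemoglobin, was high for ependymal and oligodendrocyte markers. Summed hemoglobin had rho of 0.0714 with the total count of the library.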
